A study of Mus musculus with 2 samples.

Results

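The Hox genes encode homeodomain transcription factors and lie in 4 clusters, Hoxa to Hoxd, on different chromosomes. All 39 genes whose name on the array is Hoxa, Hoxb, Hoxc or Hoxd followed by a number alone were taken. They were measured by 44 of the 39429 probes of the array, on 62 spots. The genes of a cluster are numbered by their place in it, and genes with the same number in different clusters, called paralogues, are the most alike in sequence. Along the body axis, low-numbered genes are active from the hindbrain and neck backwards, and high-numbered genes only in the trunk, pelvis, tail and limb ends. Paralogues 10 to 13 are known for patterning the urogenital tract, and paralogues 11 act together in the induction of the mouse metanephric kidney.

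The RNA came from ureters of NMRI mouse embryos at E18.5, and each of 2 arrays compared Rbpj-cKO with control RNA of the same sex. Rbpj-cKO embryos had the genotype Tbx18(cre/+);Rbpj(fl/fl), in which cre made from 1 Tbx18 allele acts on both floxed alleles of Rbpj, the DNA-binding partner of the Notch receptors. Control embryos had the genotype Rbpj(fl/?), whose other allele the labels do not give and which names no cre, so that the cre allele and the loss of Rbpj cannot be told apart. Tbx18 drives cre in the outer, mesenchymal wall of the developing ureter, and no deletion is aimed at its epithelium. Rbpj-cKO RNA was in the red channel (AlexaFluor647) on the male array and in the green channel (AlexaFluor555) on the female array, so array, sex and dye orientation cannot be told apart.

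Probes of 60 bases were matched to single Hox genes, and a few that hold codons of the conserved parts of the protein are printed because the family is so alike there. The probes of all genes were searched for codon patterns, of which 3 are given here, each spelled out by the capitals of a probe below. The hexapeptide, through which Hox proteins bind TALE partners, is in capitals in Hoxa6. The turn before the DNA recognition helix of the homeodomain, with the start of that helix, is in capitals in Hoxc11 and Hoxd10. Part of the end of that helix is in capitals in Hoxc12. The Hoxc11 probe runs on through the same part, but not in exactly those letters. Any base was allowed at 1 position of the hexapeptide pattern, at 7 of the turn pattern and at 0 of the end pattern. Sequences run 5′ to 3′ as in the scanner files, with the matched pattern in capitals, and positions are on mm9.
Hoxa6 (chr6:52158194-52158253, minus strand): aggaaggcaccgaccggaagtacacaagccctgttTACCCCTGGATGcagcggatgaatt
Hoxc11 (chr15:102787022-102787081, plus strand): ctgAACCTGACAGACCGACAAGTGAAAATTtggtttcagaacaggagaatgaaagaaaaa
Hoxc12 (chr15:102768889-102768948, plus strand): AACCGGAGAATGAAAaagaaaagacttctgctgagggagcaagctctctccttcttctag
Hoxd10 (chr2:74532280-74532339, plus strand): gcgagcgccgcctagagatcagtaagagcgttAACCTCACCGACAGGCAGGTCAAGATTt
Over all 39429 probes the hexapeptide pattern occurs in 1 (0.00254%), the turn pattern in 2 (0.00507%) and the end pattern in 1 (0.00254%). On the opposite strand all 3 occur in 0. Each pattern is spelled by a printed probe, so at least 1 match was certain, and the counts do not test how particular it is. The pattern not given here, of codons inside the recognition helix, occurs in 8 probes (0.0203%), of which 2 are Hox probes. Among 941 pairs of probes of different Hox genes, the longest run of identical bases was 11, between Hoxc11 and Hoxb4 and between Hoxc11 and Hoxc12, and the median was 6. The exon or untranslated region in which the other probes lie was not analysed here.

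The tissue and the targeted gene were checked before the Hox genes. All 6 smooth muscle, 7 urothelium and 7 ureteric mesenchyme markers were measured. Rbpj had log2 intensities of 12.70 and 12.96 in Rbpj-cKO ureters on the male and female array, against 14.28 and 13.89 in control ureters (mean log2 ratio -1.25, SD 0.46, n = 2; limma adjusted p = 0.0761). Whether that probe lies in the floxed part is not in the labels, so its value does not check them. Signal over background was 6.78 and 11.2 in the Rbpj-cKO channels of the male and female array, against 13.3 and 6.38 in the control channels, and it was lower in red on both. The 39 and 36 Hox probes that were well above background in the Rbpj-cKO channels stand beside 38 and 37 in the control channels, and no probe spot was saturated.

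Most Hox genes were detected in the fetal ureter, from low to high paralogue numbers. A gene counted as detected where 1 of its probes stood well above background in both Rbpj-cKO channels or in both control channels. That held for 34 of 39 genes, and 31 of them were above background in all 4 channels. By probe the share was 86.4% (38 of 44), where over all probes of the array it was 66.5%. By cluster, 11 of 11 Hoxa genes, 8 of 10 Hoxb genes, 7 of 9 Hoxc genes and 8 of 9 Hoxd genes were detected. By number, it was 6 of 8 genes of paralogues 1 to 3, 14 of 15 of paralogues 4 to 8 and 14 of 16 of paralogues 9 to 13.

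**Figure D1:**
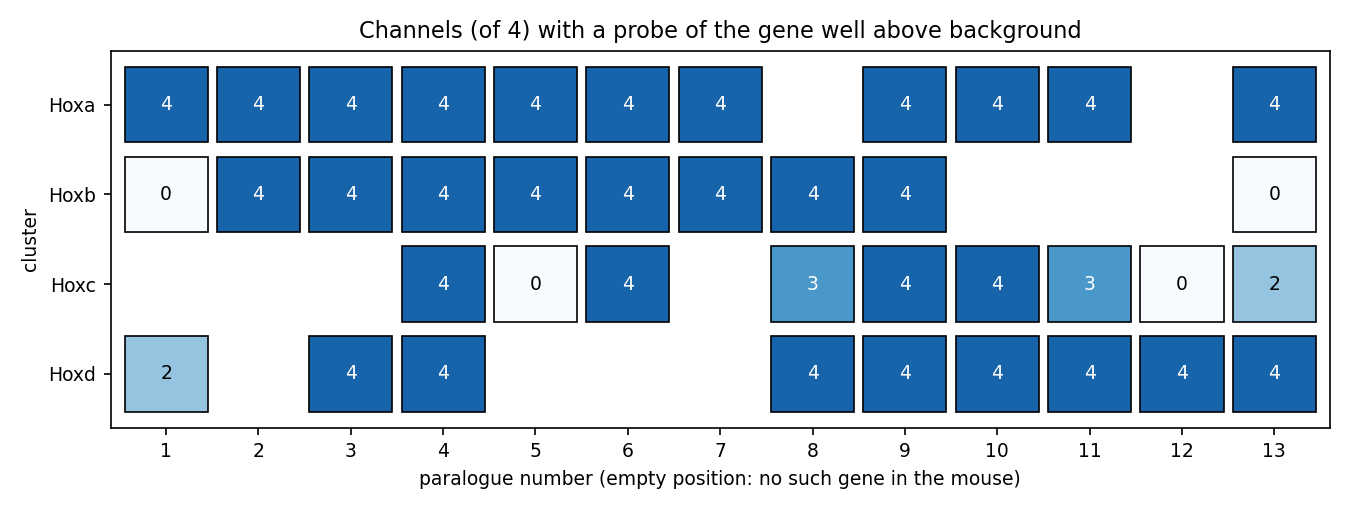
Number of channels (of 4, 2 Rbpj-cKO and 2 control) in which a probe of each Hox gene was well above background, by cluster (rows) and paralogue number (columns). All 11 Hoxa genes have 4 channels, and Hoxb1, Hoxb13, Hoxc5 and Hoxc12 have 0.

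The 5 genes that were not detected lie at the ends of the clusters or in Hoxc. Hoxb1, a hindbrain gene, had log2 intensities of 6.87 and 6.88 in Rbpj-cKO ureters and 6.90 and 6.83 in control ureters on the male and female array, averaged over its 10 spots less 1 outlier. Hoxb13, which acts in the tail and the prostate, had 6.61 and 6.54 in Rbpj-cKO ureters and 6.61 and 6.79 in control ureters. Neither was well above background in any channel, and the same holds for Hoxc5 and Hoxc12. Hoxd1 was well above background in both channels of the male array, with 7.30 in Rbpj-cKO and 7.12 in control ureters, and in neither of the female array, where it had 6.92 in Rbpj-cKO and 6.996 in control ureters. These 5 genes were not tested, and apart from Hoxd1 on the male array their true levels have only an upper bound here.

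Within Hoxc, 3 detected genes were above background in some channels. Hoxc8, a trunk gene, and Hoxc11 were above background in both control channels and in the Rbpj-cKO channel of the male array, but not in that of the female array. Hoxc13, known for its role in hair and nails, was above background in both Rbpj-cKO channels and in neither control channel. Its log2 intensities were 7.38 and 7.56 in Rbpj-cKO ureters against 7.16 and 7.11 in control ureters on the male and female array. The measured control signal lay above the lowest signal called well above background. As measured, Hoxc13 was 1.26-fold higher in Rbpj-cKO ureters, but its probe was kept only through the channels where it is high. The part of dye, sex or array in this value was not tested. For Hoxc13, the 95% interval of the mean log2 ratio was -0.09 to 0.76 and included 0. Its mean log2 ratio was 0.34 (SD 0.16, n = 2; limma adjusted p = 1). With Agilent's processed signals the same probe had ratios of 1.04 and 1.33 on the male and female array (mean 1.18, adjusted p = 0.437). In the deposited series table it had 0.43 and 0.57 (mean 0.50), and the cause of these differences was not tested.

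No Hox gene differed between Rbpj-cKO and control ureters by the test over all features. Each ratio is the log2 of Rbpj-cKO over control within an array, and the mean of both was tested with limma and Benjamini-Hochberg adjustment over 20989 features. Of 34 measured Hox genes 0 passed an adjusted p of 0.05, where 0.124% of all features did (0.0381% higher and 0.0858% lower in Rbpj-cKO ureters). Each of the 34 had an adjusted p of 1 after rounding. At an unadjusted p under 0.05 there was 1 Hox gene, Hoxc4, among those lower in Rbpj-cKO ureters, where 1.90% of all features were, and 0 among those higher, where 1.47% were. Both arrays gave a difference of 1.5-fold or more in 1 direction for 0 Hox genes, where 0.205% of features were higher and 0.434% lower by that much. The labels do not say whether an array holds RNA of 1 or several embryos, so p-values measure the spread between these arrays, which may be technical. With 1 residual and 10.3 prior degrees of freedom, that spread is mostly pooled over all features rather than a gene's own. It also holds the difference in sex and dye orientation between the arrays. In RNA of a whole tissue, fewer cells of a type and less RNA per cell cannot be told apart.

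The precision leaves room for differences of moderate size. The standard error of a mean log2 ratio was between 0.19 and 0.25 (median 0.20). The 95% interval of the mean included 0 for 33 of 34 genes, with Hoxc4 as the exception. It lay inside 1.5-fold in either direction for 12 genes, reached past 1.5-fold higher for 10 and past 1.5-fold lower for 12. The width of an interval comes mostly from the spread pooled over all features, not from a gene's own 2 arrays. Hoxb2 (0.39 and -0.41) and Hoxb9 (-0.40 and 0.40) are thus among the 12 inside. For such genes, an interval inside 1.5-fold does not exclude a larger difference.

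**Figure D2:**
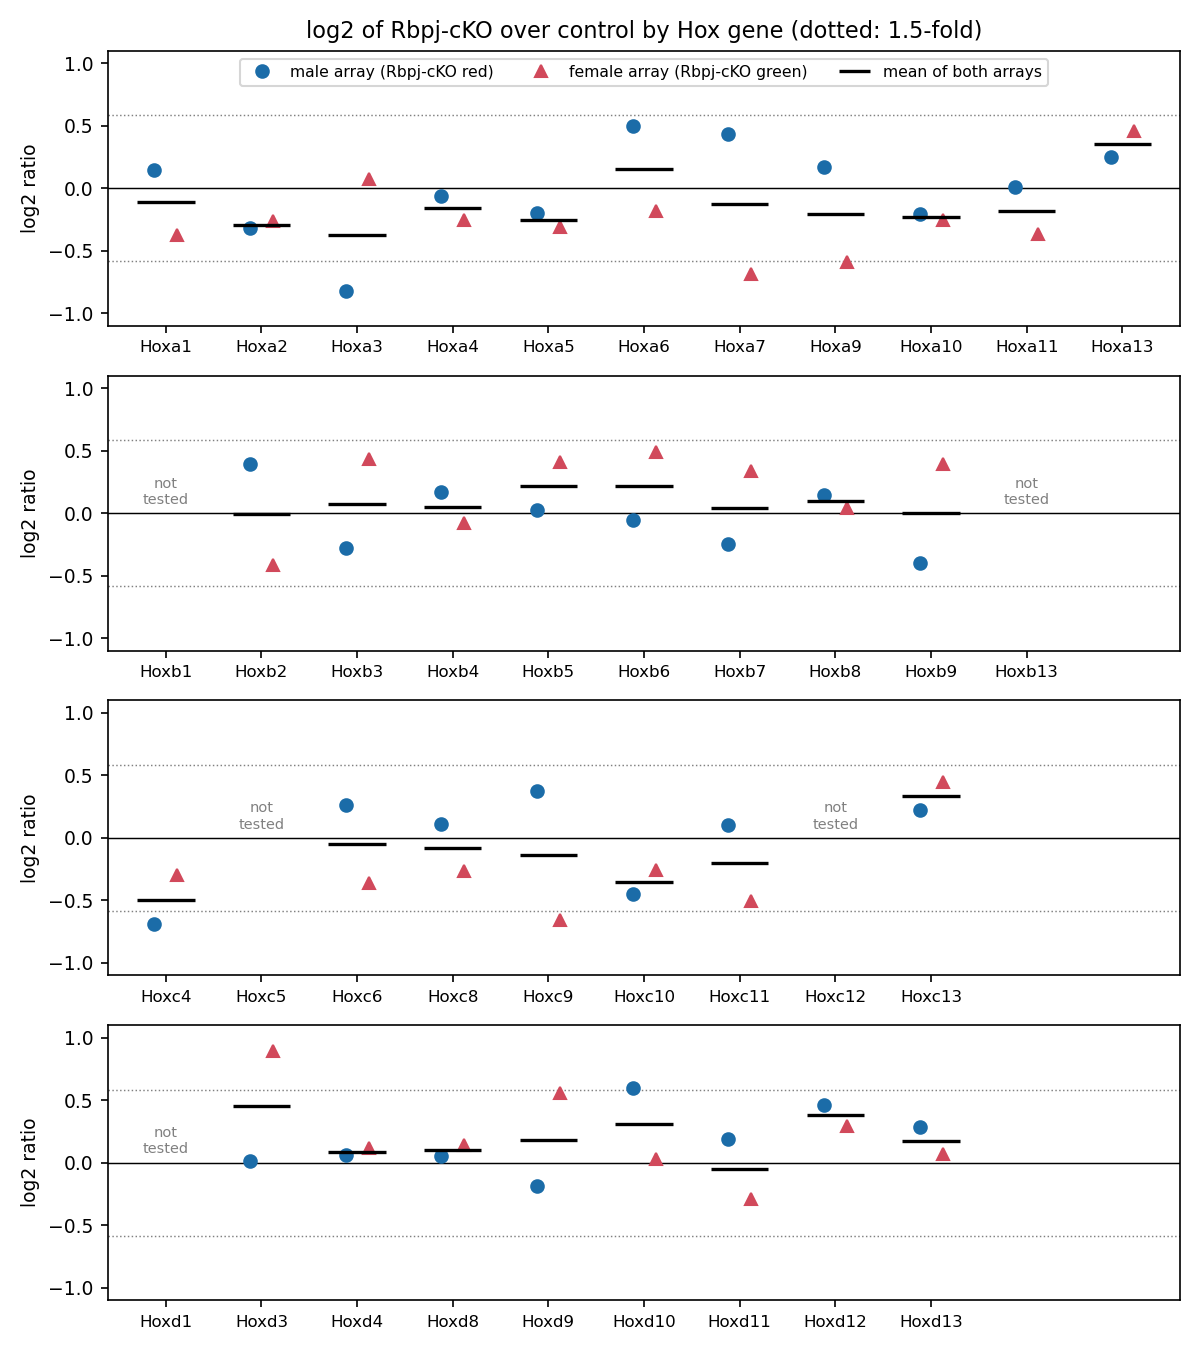
Log2 ratio of Rbpj-cKO over control for each Hox gene, with the clusters Hoxa to Hoxd from top to bottom and the genes in order of their number; circles are the male array, triangles the female array, bars the mean of both, and dotted lines 1.5-fold. No gene has both points beyond the same dotted line, and 18 of 34 genes have points on either side of 0.

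Hoxa13, Hoxd12 and Hoxd13 were higher in Rbpj-cKO ureters on both arrays, as 21.7% of all features were, by amounts that did not pass the test. Hoxa13, which patterns limb ends, hindgut and genital tubercle, had log2 intensities of 10.29 and 10.35 in Rbpj-cKO ureters on the male and female array, against 10.04 and 9.89 in control ureters. Both Rbpj-cKO values lay above both control values. Its mean log2 ratio was 0.35 (SD 0.15, n = 2; 95% interval -0.08 to 0.78; limma adjusted p = 1), and its dimmer probe gave 0.10 and 0.54. Hoxd12, a digit and limb gene, had 9.30 and 9.11 in Rbpj-cKO ureters against 8.84 and 8.82 in control ureters. Its mean log2 ratio was 0.38 (SD 0.12, n = 2; 95% interval -0.05 to 0.81; limma adjusted p = 1). Hoxd13, which acts with Hoxa13 in limb and cloaca, had 9.50 and 9.22 in Rbpj-cKO ureters against 9.21 and 9.15 in control ureters. Its mean was 0.18 (SD 0.15), with array ratios of 0.29 (male) and 0.07 (female). Hoxc13, the other measured gene of these numbers, entered the test only through its Rbpj-cKO channels, as described above.

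The paralogues 11 had their higher value in opposite groups on the arrays. Hoxa11, which acts in kidney, uterus and forearm, had log2 intensities of 13.62 and 13.37 in Rbpj-cKO ureters on the male and female array, against 13.61 and 13.73 in control ureters. Its probe was printed 10 times, and the spots of the male array gave log2 ratios between -0.04 and 0.08 and those of the female array between -0.57 and -0.21. The spread over spots was thus narrower than the gap between the arrays, and the mean was -0.18 (SD 0.26, n = 2; limma adjusted p = 1). Hoxd11 had 11.75 and 11.11 in Rbpj-cKO ureters against 11.56 and 11.40 in control ureters (mean log2 ratio -0.05, SD 0.34). Its other probe, on chromosome 2 at 74525014 to 74525073 (mm9), had ratios of 0.70 and -0.13 (mean 0.29), so the 2 probes differed in the sign of the mean. Hoxc11, measured with the probe printed above, had 7.32 and 6.96 in Rbpj-cKO ureters against 7.22 and 7.46 in control ureters (mean log2 ratio -0.20, SD 0.43). All 3 were higher in Rbpj-cKO on the male and lower on the female array, a pattern that 29.3% of all features had.

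The paralogues 10 differed among themselves. Hoxa10, known for patterning the uterus and lumbar region, had log2 intensities of 13.53 and 13.22 in Rbpj-cKO ureters on the male and female array, against 13.73 and 13.47 in control ureters. It was lower in Rbpj-cKO ureters by nearly the same amount on each array (-0.20 and -0.25; mean -0.23, SD 0.03, n = 2; limma adjusted p = 1). Across the arrays, the levels of the groups overlapped. Hoxc10, of lumbar segments and hindlimb, had 9.56 and 9.81 in Rbpj-cKO ureters against 10.004 and 10.06 in control ureters. It was lower on both arrays (mean log2 ratio -0.35, SD 0.14; 95% interval -0.78 to 0.08; adjusted p = 1). Hoxd10, whose probe covers the start of the recognition helix, had 12.91 and 12.25 in Rbpj-cKO ureters against 12.32 and 12.22 in control ureters. Its difference came from the male array (0.59, against 0.03 on the female array; mean 0.31, SD 0.40; adjusted p = 1).

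The paralogues 9 all had opposite signs on the arrays. Hoxa9 had a log2 ratio of 0.17 for males and -0.59 for females, and Hoxc9 had 0.38 and -0.66 in that order. Hoxb9 and Hoxd9 ran the other way, with -0.40 and 0.40 for Hoxb9 and -0.19 and 0.56 for Hoxd9. Their mean log2 ratios lay between -0.21 for Hoxa9 and 0.18 for Hoxd9, and opposite signs were found for 58.6% of all features.

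**Figure D3:**
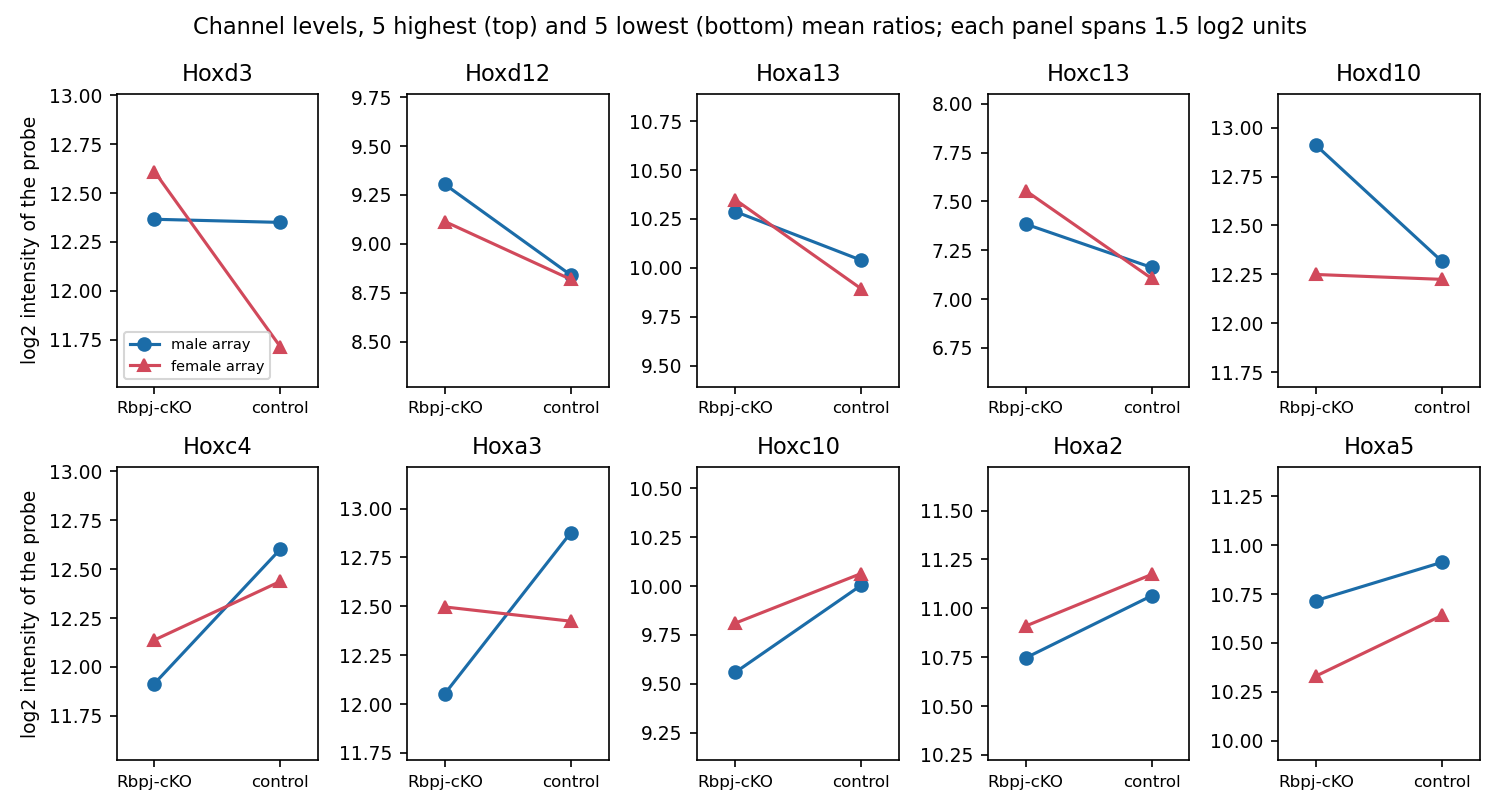
Log2 intensity in Rbpj-cKO (left) and control (right) ureters on the male and female array, for the Hox genes with the 5 highest (top row) and 5 lowest (bottom row) mean ratios; each panel is 1 probe on its own axis of the same span. Lines join the channels of an array, and Hoxd3, Hoxd10 and Hoxa3 show a slope on 1 array and a nearly flat line on the other.

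Among low-numbered genes the largest mean ratios rested on 1 array. Hoxd3, an axial patterning gene of the neck, had log2 intensities of 12.37 and 12.61 in Rbpj-cKO ureters on the male and female array, against 12.35 and 11.71 in control ureters. Its mean log2 ratio of 0.46 was the highest of the 34 genes and came from the female array (0.02 and 0.90; SD 0.62, n = 2; 95% interval -0.05 to 0.97; limma adjusted p = 1). Hoxa3, needed for thymus and parathyroid, had 12.05 and 12.50 in Rbpj-cKO ureters against 12.88 and 12.42 in control ureters. Its difference came from the male array (-0.82, against 0.07 on the female array; mean -0.38, SD 0.63; adjusted p = 1). Hoxb3, the third measured paralogue, had -0.28 and 0.43 at its brighter probe, and 0.26 and -0.08 at its dimmer probe, so the order of the arrays was turned between its probes.

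Hoxc4, Hoxa2 and Hoxa5 were lower in Rbpj-cKO ureters on both arrays, as 19.7% of all features were. Hoxc4, which patterns cervical and thoracic vertebrae, had log2 intensities of 11.92 and 12.14 in Rbpj-cKO ureters on the male and female array, against 12.60 and 12.44 in control ureters. Its mean log2 ratio of -0.49 was the lowest of the 34 genes (SD 0.27, n = 2; 95% interval -0.94 to -0.05). Its unadjusted limma p was 0.0314 and its adjusted p was 1. Hoxa2, the selector gene of the second pharyngeal arch, had 10.75 and 10.91 in Rbpj-cKO ureters against 11.06 and 11.17 in control ureters. The ratios of the arrays lay close together (-0.32 and -0.26; mean -0.29, SD 0.04; adjusted p = 1). Hoxa5, which acts in lung and shoulder girdle, had 10.72 and 10.33 in Rbpj-cKO ureters against 10.91 and 10.64 in control ureters (mean -0.25, SD 0.08; adjusted p = 1), and the levels of the groups overlapped between arrays.

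Taken by cluster, the ratios lay on different sides of 0. The Hoxd genes had a median of the mean log2 ratios of 0.18 over 8 measured genes, and 6 of them were higher in Rbpj-cKO ureters on both arrays and 0 lower on both. The Hoxa genes had a median of -0.18 over 11, with 1 higher on both arrays (Hoxa13) and 4 lower on both (Hoxa2, Hoxa4, Hoxa5 and Hoxa10). The Hoxc genes had a median of -0.14 over 7, with Hoxc13 higher and Hoxc4 and Hoxc10 lower on both. The Hoxb genes had a median of 0.06 over 8, with Hoxb5 and Hoxb8 higher on both. All 34 genes together had a median of -0.01, beside 0.01 over all features, with 10 higher on both arrays and 6 lower on both (21.7% and 19.7% of all features). Hoxc13 is among the 10 and passed the filter only through the Rbpj-cKO channels, where it is high. Genes of a cluster were measured on the same arrays and are not replicates, and no test of the clusters was made.

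The ratios of the Hox genes also differed between the arrays. Opposite signs were found for 18 of 34 genes, 12 of them higher on the male and lower on the female array and 6 the other way, where each way held for 29.3% of all features. The distance of an array's ratio from the mean of both had a median size of 0.22 over the Hox genes and 0.14 over all features. The mean itself had a median size of 0.18 over the Hox genes and 0.10 over all features. The largest such difference was that of Hoxa7, with log2 ratios of 0.44 (male) and -0.68 (female; mean -0.12). In Hoxb, 4 of 8 genes (Hoxb3, Hoxb6, Hoxb7 and Hoxb9) were lower on the male and higher on the female array, and 2 (Hoxb2 and Hoxb4) ran the other way. Hoxb7, whose promoter is widely used to mark the ureteric bud, had -0.24 and 0.33 (mean 0.04). In Hoxc, 4 of 7 (Hoxc6, Hoxc8, Hoxc9 and Hoxc11) were higher on the male and lower on the female array, and none ran the other way. Across genes, which share the arrays and are not independent, the ratios of the arrays had a Pearson correlation of -0.17 over the 34 Hox genes and -0.18 over all 20989 features.

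**Figure D4:**
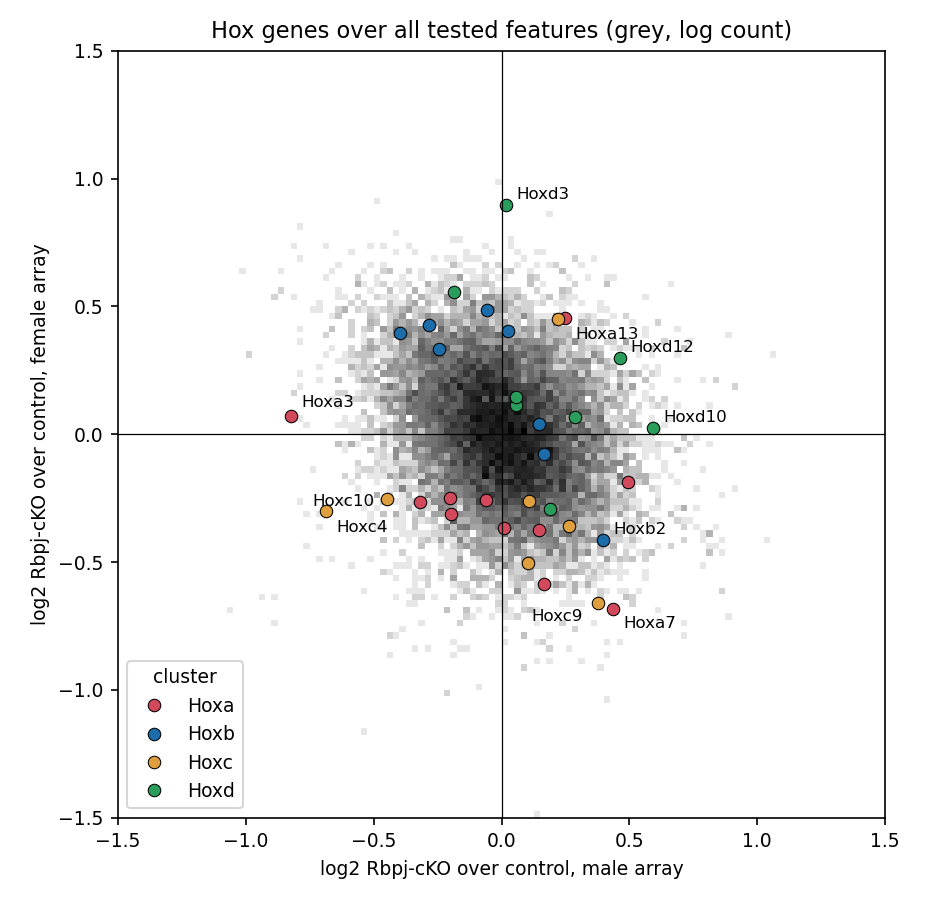
Log2 ratio of Rbpj-cKO over control on the male (horizontal) and female (vertical) array, with all tested features as a grey density (darker is more features, log scale) and the 34 measured Hox genes as coloured points by cluster; features beyond the axes are not drawn. Hoxc9 and Hoxa7 lie at the lower right, Hoxd3 at the top and Hoxa3 at the left, and 6 of 8 Hoxd points lie in the upper right, above 0 on both axes.

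Other transcripts inside the clusters were measured by 17 probes, 6 in Hoxa, 5 in Hoxb, 1 in Hoxc and 5 in Hoxd. Hoxa11os, the transcript on the strand opposite to Hoxa11, had log2 ratios of -0.01 and -0.34 on the male and female array, beside 0.01 and -0.37 for Hoxa11. A plus-strand transcript known by its Ensembl identifier ENSMUST00000114435 has a probe on chromosome 6 at 52119107 to 52119166 (mm9), which overlaps the minus-strand Hoxa3 probe at 52119087 to 52119146. It had -0.99 and 0.31, beside -0.82 and 0.07 for Hoxa3. Between the probes of Hoxa11 and Hoxa13, 9530018H14Rik had 0.16 and 0.29. Gm14424, whose probe lies near that of Hoxd3, had 0.44 and 0.61 (mean 0.52). Hoxd3os1, whose probe lies near that of Hoxd8, had 0.44 and -0.28. None of the measured ones passed the test (limma adjusted p = 1 each). Evx1, the homeobox gene next to Hoxa13, had log2 intensities of 7.57 and 7.23 in Rbpj-cKO ureters on the male and female array, against 7.14 and 6.77 in control ureters. It was well above background in both Rbpj-cKO channels and in neither control channel. It thus entered the test only through the group where it is high. Evx1 as measured was at least 1.3-fold higher there, which leaves out the error of the ratio and does not bound the true difference. It did not pass the test (limma adjusted p = 1), and no difference is read from it. Evx2, its counterpart next to Hoxd13, was not well above background in any channel.

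Promoters were searched for the core of the RBPJ binding site, because Rbpj is the gene deleted. The letters TGGGAA, or TTCCCA on the other strand, were looked for in the 250 bases before the start of each gene in RefSeq (GRCm38.p6). They were found in 4 of 24 Hox promoters, which belong to 22 genes, or 16.67%, and in 21.59% of all 32851 promoters. The genes were Hoxa6, Hoxa9, Hoxa13 and Hoxd3. The windows of Hoxd3 and Hoxa13 are printed because their mean ratios were among the 3 highest, with each match in capitals.
Hoxd3 (chr2:74711743-74711992, plus strand): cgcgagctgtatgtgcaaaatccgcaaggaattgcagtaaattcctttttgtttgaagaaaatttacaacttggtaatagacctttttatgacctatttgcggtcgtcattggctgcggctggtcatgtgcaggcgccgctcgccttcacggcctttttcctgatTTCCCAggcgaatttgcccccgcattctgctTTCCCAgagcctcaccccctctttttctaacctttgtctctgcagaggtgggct
Hoxa13 (chr6:52260881-52261130, minus strand): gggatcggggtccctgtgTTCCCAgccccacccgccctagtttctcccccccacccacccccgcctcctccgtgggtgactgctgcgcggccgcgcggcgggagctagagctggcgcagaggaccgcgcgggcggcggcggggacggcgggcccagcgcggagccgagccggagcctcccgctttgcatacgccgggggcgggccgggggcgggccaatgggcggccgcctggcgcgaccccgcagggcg
The matches begin 85 and 54 bases before the start in Hoxd3 and 232 bases before it in Hoxa13. Hoxa6 and Hoxa9, with 1 match each, had mean log2 ratios of 0.15 and -0.21. Hoxd12, the other of the 3 genes with the highest mean ratios (0.38), had no match in its window. A match describes the letters and is not evidence of binding.

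Partners and regulators of Hox genes gave no call, where 0.124% of all features passed. At that share, the lack of a call in lists of this size is not a result about their members. Of the TALE homeodomain cofactors, with which Hox proteins bind DNA, 9 of 9 were measured and 0 passed, with a median mean log2 ratio of -0.08. The lowest was Meis1 at -0.22, and Meis2 had -0.60 (male) and 0.29 (female). Of 25 polycomb group genes, which keep Hox clusters silent, 24 were measured and 0 passed (median 0.02), from Phc3 at -0.60 to Ezh1 at 0.32. Of 12 trithorax group genes on the array, which keep them active, 11 were measured and 0 passed (median 0.04), from Ash1l at -0.08 to Kmt2b at 0.26. Of 15 genes of retinoic acid synthesis and response, a pathway that induces Hox genes, 13 were measured and 0 passed (median 0.07). There Aldh1a3, an enzyme of retinoic acid synthesis, had 1.15 and 0.02 (mean 0.59), and Crabp1, which binds retinoic acid in the cell, had -0.33 and -0.55 (mean -0.44). The list of Cdx genes and cluster neighbours had 9 of 12 members measured and 0 past the test (median -0.06). Smug1 was lowest at -0.18, and Evx1, kept only through its Rbpj-cKO channels, was highest. Cdx2 and Cdx4 were not well above background in any channel. The 4 measured noncoding transcripts named after the clusters had a median of 0.05 and 0 calls, from Hoxa11os at -0.17 to 0610040B09Rik at 0.19.

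Genes linked to the paralogues 11 in the kidney held 1 call, which depended on the processing. Of 12 such genes 12 were measured and 1 rose, where 0.0381% of all features did, and their median mean log2 ratio was 0.17. Gdnf, the ligand that draws the ureteric bud and a target of Hox11 proteins in the mouse, had log2 intensities of 10.04 and 10.41 in Rbpj-cKO ureters on the male and female array, against 8.65 and 9.07 in control ureters. It rose (mean log2 ratio 1.36, SD 0.04, n = 2; limma adjusted p = 0.0211). Under the 9 other settings its ratio lay between 1.36 and 1.63, and it missed the threshold in 5 of them (adjusted p between 0.0600 and 0.991). Six2, a nephron progenitor factor and also a Hox11 target, had 10.32 and 10.65 in Rbpj-cKO ureters against 8.84 and 9.78 in control ureters (mean 1.17, SD 0.44; adjusted p = 0.102), at least 1.5-fold higher on both arrays. Its dimmer probe, above background in all 4 channels, gave 0.29 and 0.48 (mean 0.38). Foxd1, a marker of kidney stroma, had 13.79 and 13.87 in Rbpj-cKO ureters against 14.69 and 14.61 in control ureters (mean -0.82, SD 0.11; adjusted p = 0.335), at least 1.5-fold lower on both. Over all features, 0.205% were at least 1.5-fold higher and 0.434% at least 1.5-fold lower on both arrays. At the brightest probe of each, the 3 Hox11 genes had means between -0.20 and -0.05 beside them. The dimmer Hoxd11 probe had a mean of 0.29.

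The summed levels of markers of other cells differed between channels, and for sympathetic neurons the direction of the sum turned between the arrays. Of 7 sympathetic neuron markers 7 were measured, and their summed linear intensity was 9695 and 12054 in Rbpj-cKO ureters on the male and female array, against 7416 and 29589 in control ureters. Dbh and Th, enzymes of noradrenaline synthesis, had log2 ratios of 1.42 and 0.61 on the male array, and -2.32 and -1.79 on the female array. The sum of the female control channel mostly follows these genes, which had 13.30 and 13.63 there. By gene, 4 of the 7 were higher on the male and lower on the female array. Prph was higher on both arrays, and Nefl and Nefm were lower on both. Of 5 mesothelium markers 5 were measured, with sums of 50228 and 43564 in Rbpj-cKO ureters against 38051 and 41604 in control ureters. The mesothelium sums mostly follow Msln and Upk3b, the 2 markers that were higher on both arrays. The other 3 (Muc16, Wt1 and Lrrn4) were higher on the male and lower on the female array. Of 10 kidney markers 4 were measured, with sums of 9587 and 11881 in Rbpj-cKO ureters against 12485 and 13674 in control ureters. These sums mostly follow Cited1, the brightest of the 4, and are not the direction of the list. By gene, Six2 and Cdh16 were higher on both arrays and Cited1 and Lrp2 lower on both, with a median mean log2 ratio of 0.26. Nphs1, Slc12a1 and Umod were not well above background in any channel. Of 6 skeletal muscle markers 3 were measured, and Myod1 and Myf5 were not well above background in any channel. Of 8 genital duct and gonad markers 6 were measured, with sums of 6017 and 5309 in Rbpj-cKO ureters against 6228 and 5573 in control ureters. By gene, 3 of the 6 were higher on both arrays, 1 lower on both and 2 opposite, with a median mean log2 ratio of 0.11. Amh and Wnt7a were not well above background in any channel. None of the ureter's own markers passed the test, with sums of 554867 and 552063 in Rbpj-cKO ureters against 662507 and 602091 in control ureters for smooth muscle, and 787949 and 835187 against 649584 and 697251 for urothelium. The ureteric mesenchyme markers had sums of 148303 and 143658 in Rbpj-cKO ureters against 126311 and 115962 in control ureters, with 5 of 7 higher on both arrays and 1 lower. The part of these cells in the Hox ratios was not tested.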

How the data were processed

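Per the labels' protocols, total RNA of dissected ureters was amplified to cRNA and coupled to AlexaFluor555 or AlexaFluor647. The deposited arrays were read with Agilent Feature Extraction 10.7.3.1 (per the submitters' processing notes) as 1 intensity per spot and dye. Mean and background intensity are not normalized, and LogRatio holds log10 values of red against green after dye normalization, per the file headers. The deposited series table holds a score, the fold change with a sign, set as Rbpj-cKO over control: 98.0% and 98.1% of kept probes matched the scanner log ratios of the male and female array within 0.001 on the log2 scale.

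Mean signals were corrected with normexp (offset 50) and normalized by loess within arrays (limma 3.58.1, R 4.3.3), with control spots at weight 0. Spots marked as outliers, 200 of the male array and 274 of the female, were dropped, and the rest averaged per probe. Levels are log2 intensities after loess and Aquantile. The brightest kept probe stood for a gene. The number of arrays limits the precision: lmFit and eBayes had 1 residual and 10.3 prior degrees of freedom, and tests were two-sided. Levels of different probes were not compared, but those of a marker list were added up within a channel. The fit was tested on simulated data.

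Full values are given for the 5 highest and 5 lowest mean ratios and for paralogues 10, 11 and 13, and of other lists for members past the test, members at least 1.5-fold different on both arrays, and the highest and lowest. Hoxd12, the other genes inside the clusters, Meis2, Dbh and Th were named after their values were seen, as were those named by sign or channel. The members and lists were chosen with earlier results of these data known. Alternatives are described in the closing section. Some items are not reported here.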

Additional observations from a re-analysis of the deposited data

How the results depend on the processing

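No Hox gene passed under any of 9 other settings: median centring, Agilent's processed signals, the series table, no filter, a filter on all 4 channels, the mean of probes, every probe, an intensity trend, and offset 10. The lowest adjusted p of a Hox gene was 0.437, with Agilent's processed signals, and 0 to 2 Hox genes had an unadjusted p under 0.05. In the first 4 of these settings 0 features passed over the whole array, and 42 did with every probe as its own feature. Gdnf, examined under these settings after its value was seen, missed the threshold in these 4 (adjusted p = 0.991, 0.287, 0.298 and 0.113) and with the mean of probes (0.0600). The count of Hox genes at least 1.5-fold different in the same direction on both arrays became 1 with Agilent's processed signals (Hoxc13), and the cause was not tested. On a single array it was 3 to 4: Hoxd10 higher and Hoxa3 and Hoxc4 lower on the male array, and Hoxd3 higher and Hoxa7, Hoxa9 and Hoxc9 lower on the female array. The median over the Hox genes lay between -0.01 and 0.07, and was 0.08 with only the male array and -0.13 with only the female one. The sign of the mean held in every setting with 1 value per gene for 29 of 34 genes and not for Hoxd11, Hoxb2, Hoxb9, Hoxc6 and Hoxb7. Detected genes numbered 31 when all 4 channels were required and 35 when 1 was enough. The pairing of Rbpj-cKO and control RNA was used, because each ratio is taken within an array. With 1 group of 2 arrays, no further paired analysis was possible.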
